A study of Mus musculus with 8 samples.

Results

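Fatty acid elongases and desaturases set the chain length and the double bonds of the fatty acids that the liver makes or takes up. The genes described are the elongases Elovl1, Elovl2, Elovl3, Elovl5 and Elovl6, the stearoyl-CoA desaturases Scd1 and Scd2, and the desaturases of polyunsaturated fatty acids Fads1 and Fads2. They were chosen by symbol, and all 9 symbols matched an Ensembl identifier among the 38283 genes of the deposited liver expression table. RORα (gene Rora) is an orphan nuclear receptor, and the study compared livers with and without it on a control diet (CD) or a high-fat diet (HFD). The f/f group is RORα f/f mice, in which loxP sites flank exons 4 and 5 of both Rora alleles. The LKO group is Alb-cre;RORa f/f mice, which carry the same sites together with Cre recombinase driven by the albumin promoter. Albumin is made by hepatocytes and by the precursors they share with bile duct cells, and in which liver cells the exons were lost was not tested here. The mice were males on the C57BL/6 background and ate their diet for 10 weeks from 8 weeks of age. Livers of 2 mice were pooled for a library and each of the 4 groups (f/f CD, LKO CD, f/f HFD and LKO HFD) has 2 libraries, from 4 mice, so that no value belongs to a single animal.

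A fatty acid elongase carries out the condensation step that adds a carbon unit to an acyl-CoA in the endoplasmic reticulum, and further enzymes complete each round. Elovl6 lengthens palmitate to stearate, Elovl1 and Elovl3 act on longer saturated and monounsaturated chains, and Elovl2 and Elovl5 act on polyunsaturated chains. Scd1 turns stearate and palmitate into oleate and palmitoleate, whereas Fads1 and Fads2 insert double bonds into the essential polyunsaturated fatty acids. In liver several of these genes are known targets of the lipogenic factor SREBP-1c (gene Srebf1), of LXR and of PPARα.

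The genes lie on 5 chromosomes of GRCm38. Elovl1 is at chr4:118428093-118432953 on the plus strand, Elovl2 at chr13:41182381-41220405 on the minus strand, Elovl3 at chr19:46131897-46135694 on the plus strand, Elovl5 at chr9:77917364-77984519 on the plus strand and Elovl6 at chr3:129532355-129638495 on the plus strand. Scd1 (chr19:44394455-44407879, minus strand) and Scd2 (chr19:44293674-44306864, plus strand) sit with Scd3 and Scd4 in a cluster of 4 genes that spans 204.6 kb. Fads1 (chr19:10182888-10196877, plus strand) and Fads2 (chr19:10062765-10101746, minus strand) sit with Fads3 in a cluster of 3 genes that spans 155.3 kb. The sequences before the starts of Elovl5, Elovl6 and Elovl1 are shown first because these elongases gave the clearest differences, Elovl5 between the genotypes and Elovl6 and Elovl1 between the diets. Each line holds the 250 bases upstream of a RefSeq transcription start on GRCm38.p6, 5′ to 3′ on the strand of the gene. Capitals mark matches, on either strand, to AGGTCA (the core that ROR receptors and other nuclear receptors bind), GGGTCA (a variant of this core), the CCAAT box and the sterol regulatory element TCACNCCAC. The lines are Elovl5 (chr9:77917115-77917364), Elovl6 (chr3:129532136-129532385) and Elovl1 (chr4:118427843-118428092).
Elovl5: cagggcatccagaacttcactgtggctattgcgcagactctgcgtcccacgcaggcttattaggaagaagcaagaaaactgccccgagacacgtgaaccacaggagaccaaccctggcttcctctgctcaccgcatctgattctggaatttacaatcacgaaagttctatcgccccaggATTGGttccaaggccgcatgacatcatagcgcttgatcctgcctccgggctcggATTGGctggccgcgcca
Elovl6: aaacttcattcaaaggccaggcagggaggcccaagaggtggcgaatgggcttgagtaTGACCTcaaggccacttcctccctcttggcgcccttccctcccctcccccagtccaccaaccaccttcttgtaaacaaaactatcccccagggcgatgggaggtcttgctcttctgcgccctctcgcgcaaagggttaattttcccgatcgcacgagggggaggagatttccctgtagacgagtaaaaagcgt
Elovl1: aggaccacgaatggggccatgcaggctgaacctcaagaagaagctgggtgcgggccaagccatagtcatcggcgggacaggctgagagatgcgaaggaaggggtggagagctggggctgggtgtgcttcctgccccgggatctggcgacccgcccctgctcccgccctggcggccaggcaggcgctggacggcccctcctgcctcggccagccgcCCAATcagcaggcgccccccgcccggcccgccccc
Elovl5 holds 2 CCAAT matches, both read on the minus strand, 71 and 17 bases before the start. Elovl6 holds 1 AGGTCA match on the minus strand, 193 bases before the start. Before this start Elovl1 holds 1 CCAAT match on the plus strand, 35 bases away, and also 5 matches to the GC box GGGCGG, which are left in lower case. RefSeq gives Elovl1 a second start further into the gene, and the 250 bases before it (chr4:118429451-118429700, not printed) hold 1 AGGTCA match on the minus strand, 95 bases away, and 2 matches to GGGCGG. Over all 32851 RefSeq promoters of this length, 33.8% hold CCAAT, 14.0% AGGTCA, 11.6% GGGTCA, 32.7% GGGCGG and 1.05% TCACNCCAC, so that each match shown is a common one and says nothing of what binds there. Of the 9 genes, 5 had a promoter entry (Elovl1, Elovl2, Elovl5, Elovl6 and Fads2). For Scd1 and Elovl3 the sequences shown are the primer pairs that the study designed for quantitative PCR (forward, then reverse), which mark where their transcripts can be told from related ones.
Scd1 forward: ttcttgcgatacactctggtgc
Scd1 reverse: cgggattgaatgttcttgtcgt
Elovl3 forward: ttctcacgcgggttaaaaatgg
Elovl3 reverse: gagcaacagatagacgaccac
Each primer matched the annotated transcripts of its own gene and of no other, and the Scd1 pair spans 98 bases. The deposited values, by contrast, count reads along whole transcripts. Of all stretches of 50 bases in the Scd1 transcripts, 4.61% also occur in another gene (mostly Scd3 and Scd2), and for Scd2 the share was 4.01%. For Elovl6 it was 3.98%, mostly in Gm11295, and for the other genes it was at most 0.202%, so that the FPKM of Scd1, Scd2 and Elovl6 carry a small uncertainty from copies.

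Values are FPKM, in which fragment numbers are divided by the length of the transcript and the size of the library, as the authors deposited them, and no read counts were used, so that the depth behind a value is unknown. Between 10587 and 10706 genes had an FPKM above 1 in a library. As a check of the genotype labels, the FPKM of Rora was 8.85 and 8.59 in f/f CD, 7.96 and 8.18 in LKO CD, 7.56 and 7.86 in f/f HFD and 7.30 and 8.02 in LKO HFD. These FPKM were estimated over the whole gene, of which the floxed exons 4 and 5 are only a part, so that they do not measure the deletion itself. The HFD libraries of the 2 genotypes overlapped, and libraries are therefore called f/f-labelled and LKO-labelled, with each direction between genotypes resting on those labels. The hepatocyte markers Ttr (3994 to 4541) and Apoa1 (4407 to 6290) were high in all 8 libraries, but Alb was listed at 0 in 4 of them, which can be a failed estimate. None of the 9 genes was listed at 0 in a library. The adipocyte markers summed to 3.82 to 8.24 FPKM, nearly all of it from Adrb3, and Adipoq, Lep, Plin1, Retn and Cidea had at most 0.393 FPKM in any library.

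Scd1 was the most abundant of these transcripts in every library. Its FPKM was 696 and 1437 in f/f CD, 1676 and 1516 in LKO CD, 234 and 762 in f/f HFD and 1562 and 559 in LKO HFD. It made up 31.9% to 67.3% of the summed FPKM of the 9 genes and ranked between 45 and 273 among all genes of a library. In 3 of the 4 groups (all but LKO CD) its 2 libraries lay far apart. Fads2 followed in 3 of the 4 groups with mean FPKM between 151 and 251, and its libraries overlapped those of Elovl5 in f/f CD and LKO HFD. Elovl5 and Elovl2 overlapped each other in LKO CD and in f/f HFD, and Elovl2 and Fads1 overlapped in LKO HFD. Below these came Elovl3, Elovl1, Elovl6 and Scd2, in this order in all 4 groups and with no overlap between neighbours. Scd2, the stearoyl-CoA desaturase better known from brain, lay between 0.627 and 0.819 FPKM in the 8 libraries, never reached an FPKM of 1 and was therefore not tested. All comparisons below are over the other 8 genes.

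**Figure D1:**
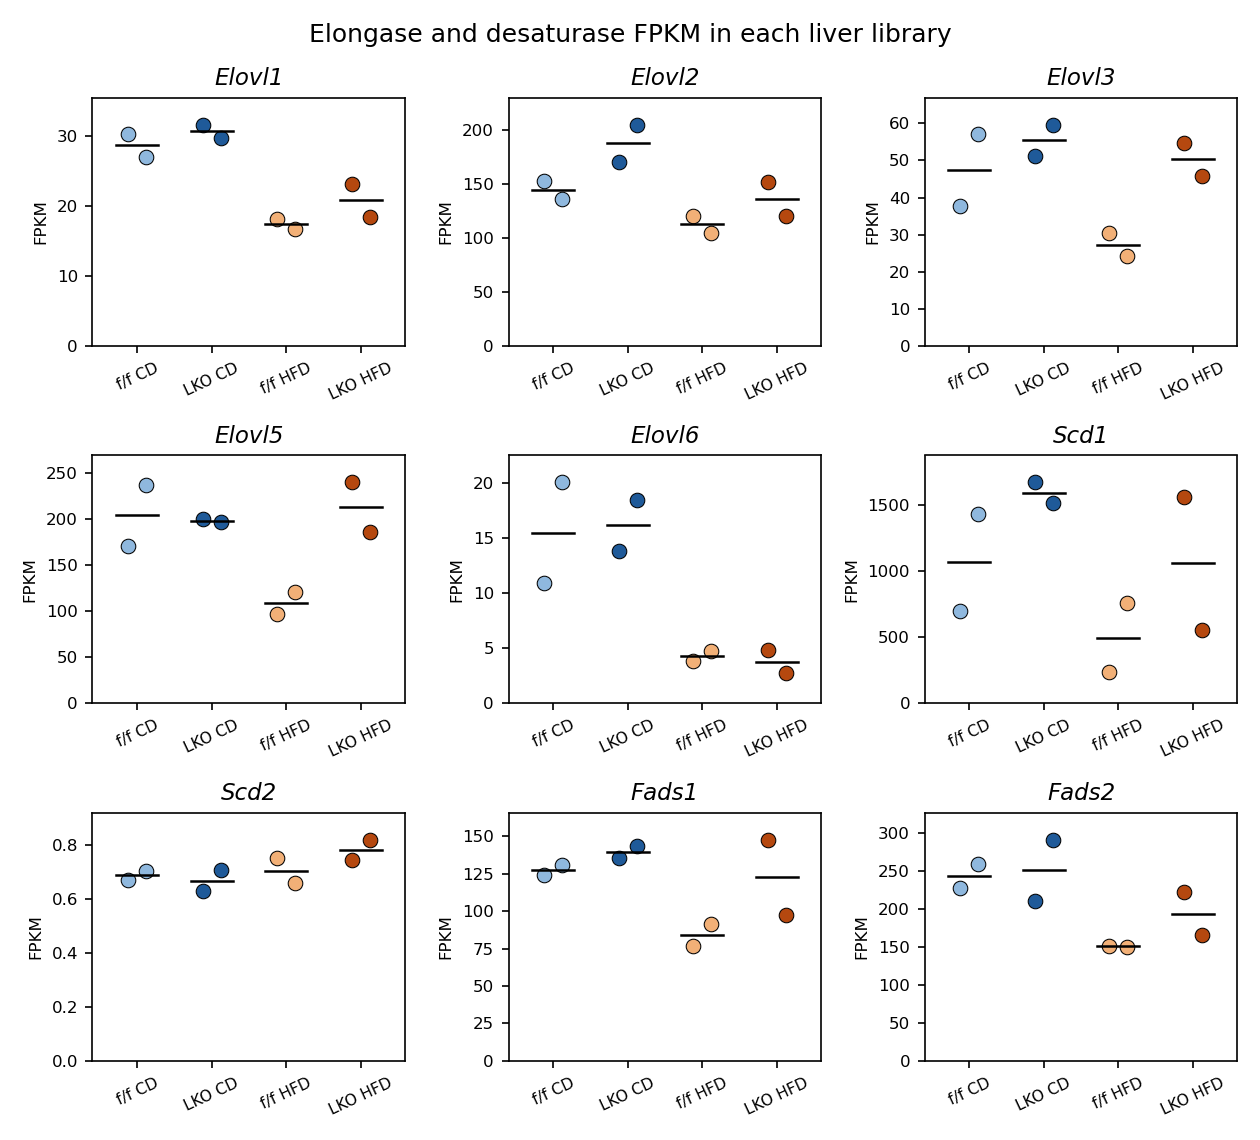
FPKM of the 9 elongases and desaturases (vertical axis, linear, from 0, a different scale for each gene) in the libraries of the 4 groups (horizontal axis); each point is 1 library of pooled livers from 2 mice and the bar is the mean of the 2 libraries. Elovl3 and Elovl5 are low in both f/f HFD libraries, Elovl6 is low in all 4 HFD libraries, and the 2 libraries lie far apart for Scd1 in every group but LKO CD.

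The first question was whether the genes differed between LKO-labelled and f/f-labelled livers on HFD. Elovl5, Elovl3, Fads1 and Scd1 were called higher in the LKO-labelled livers by a rebuilt form of the study's permutation procedure, whereas Elovl6 was not. The procedure, rewritten from the methods with fewer regroupings than the study drew, combines a T-statistic and a log2 fold change against regrouped libraries and calls a gene whose combined p does not exceed 0.05 and whose fold change in either direction is 1.36 or more. Its calls are those of the rebuilt form, not the gene lists of the study, and its p values are not adjusted over genes. Fold changes are differences of means of normalized log2(FPKM + 1), a scale on which the change of a weakly expressed gene, here Elovl6, comes out too small. In bulk liver, a lower share of a cell type and less RNA per cell cannot be told apart.

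The elongase of polyunsaturated chains Elovl5 had 97.4 and 120 FPKM in the f/f HFD libraries and 240 and 186 in the LKO HFD libraries. Both LKO-labelled libraries lay above both f/f-labelled ones, where the 4 CD libraries ranged from 171 to 238 FPKM. The log2 fold change was 1.00 (SE 0.21, 95% interval 0.502 to 1.498), with a combined p of 0.004 in the procedure and an adjusted p of 0.24 in limma. Elovl3, which makes long saturated and monounsaturated chains, had 30.3 and 24.3 FPKM in f/f HFD and 54.7 and 45.9 in LKO HFD. Its libraries did not overlap either, and the log2 fold change was 0.89 (SE 0.21, 95% interval 0.39 to 1.40, combined p of 0.004, limma adjusted p = 0.27). Leaving out any of the 4 libraries kept both genes called by the procedure, with log2 fold changes of 0.79 to 1.22 for Elovl5 and 0.74 to 1.05 for Elovl3.

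For Fads1, which places the double bond that yields arachidonate, the libraries had 76.9 and 91.1 FPKM in f/f HFD and 147.9 and 97.5 in LKO HFD. The groups did not overlap, but the second LKO-labelled library stood only slightly above the f/f-labelled ones. The log2 fold change was 0.54 (SE 0.20, combined p of 0.047, limma adjusted p = 0.47), and Fads1 was called in 1 of the 4 fits that left out a library. Its log2 fold change was 0.42 without f/f HFD 1, 0.66 without f/f HFD 2, 0.22 without LKO HFD 1 and 0.87 without LKO HFD 2, the fit that kept the call. Scd1 had the largest fold change, 1.34, and the largest error (SE 0.71, 95% interval −0.36 to 3.03, combined p of 0.028, limma adjusted p = 0.62). Its HFD libraries overlapped between genotypes, as the FPKM above show, and its call was lost without f/f HFD 1 (log2 fold change 0.51) or without LKO HFD 1 (0.49).

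The other 4 genes were not called on HFD. Fads2, which catalyses the first desaturation of the essential fatty acids, had 151.5 and 150.5 FPKM in f/f HFD and 222 and 166 in LKO HFD, with no overlap and a log2 fold change of 0.36 (SE 0.19, combined p of 0.079). Elovl1 also did not overlap, at 18.1 and 16.7 against 23.2 and 18.4 FPKM, with a log2 fold change of 0.24 (SE 0.12). Elovl2 overlapped, at 120.6 and 104 against 152 and 120.2 FPKM, with a log2 fold change of 0.30 (SE 0.15). Elovl6 overlapped and had a log2 fold change of −0.17 (SE 0.32, 95% interval −0.94 to 0.60).

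By the procedure, 4 of the 8 genes were thus called higher on HFD, where 2.54% of all 11634 genes tested were called higher. In limma none of the 8 had an adjusted p under 0.05, where 0.043% of all genes did. Unadjusted limma p was under 0.05 and the direction higher for 3 (Elovl3, Elovl5 and Fads1), against 5.46% of all genes, and both LKO-labelled libraries lay above both f/f-labelled ones for 5 on the normalized scale, against 21.4% of all genes. The median log2 fold change of the 8 genes was 0.45, and that of all genes was near 0. With 2 libraries against 2, the exact permutation test (two-sided) for any 1 gene cannot give a p below 0.333. The limma p values rest on the spread between pooled libraries within groups. The combined p of the procedure does not measure that spread alone. Its reference values come from regroupings of all 8 libraries, across diets and genotypes, and are pooled over all genes tested. Kupffer cell and macrophage markers moved with this comparison. All 7 had higher means in LKO HFD, where 5718 of all 11634 genes did, by a median log2 fold change of 0.39. On the normalized scale 4 of the 7 were higher without overlap, against 21.4% of all genes. None had a limma adjusted p under 0.05 and 1 (Cd68) was called by the procedure. With a library left out, this call was kept only without f/f HFD 1 (log2 fold change 0.71). The summed FPKM of the 7 macrophage markers was 74.5 and 61.7 in f/f HFD and 107.8 and 76.6 in LKO HFD, highest in LKO HFD 1. Of the 4 HFD libraries, LKO HFD 1 was also highest in FPKM for all 8 tested elongases and desaturases, and the part of these markers in the result was not tested. Stellate cell (11.7 to 22.7), endothelial (31.1 to 46.6), cholangiocyte (2.05 to 2.67) and lymphocyte markers (1.78 to 2.99) had the given ranges of summed FPKM over the 8 libraries. The only 1 of them called in a comparison was the stellate gene Reln, which rose on HFD on average (0.62 on the log2 scale, limma adjusted p = 0.029). Its call was kept in 2 of the 8 fits that left out a library. The summed FPKM of the 5 hepatocyte markers other than Alb was 11114 and 10605 in f/f HFD and 10352 and 10620 in LKO HFD, most of it from Ttr and Apoa1. Of the lesser markers, Cps1 (urea synthesis) had 596 and 666 FPKM in f/f HFD and 456 and 455 in LKO HFD. It was called lower by the procedure (log2 fold change −0.46, SE 0.12, combined p of 0.0096, limma adjusted p = 0.31). With a library left out, this call was kept only without f/f HFD 1 (log2 fold change −0.54). Serpina1a was also lower without overlap, at 1130 and 1081 against 885 and 941 FPKM, and was not called, and Tat overlapped. Ttr, not called, was higher without overlap, at 4196 and 4034 FPKM in f/f HFD against 4302 and 4200 in LKO HFD. Of the 6 hepatocyte markers (Alb, with its values of 0, included), 3 were lower and 3 higher in LKO HFD. On the normalized scale 2 were lower and 2 higher without overlap, where 21.4% of all genes were higher. The part of the hepatocyte markers in the result was not tested either.

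On CD the fold changes were smaller in size than on HFD for 7 of the 8 genes, all but Elovl2, and whether they differed between the diets is tested further on as an interaction. The procedure called none of the 8 genes, where it called 5.35% of all genes in either direction, and limma with adjustment also called none, where it called 0.0172% of all genes. Elovl2, which extends the longest polyunsaturated chains, had 152 and 136 FPKM in f/f CD and 170.4 and 205 in LKO CD, with no overlap. It was the only gene whose unadjusted limma p was under 0.05 in the higher direction (log2 fold change 0.39, SE 0.15, adjusted p = 0.37), against 6.15% of all genes. Its combined p was 0.027, but its fold change did not reach the threshold. Scd1 and Fads1 were also separated, which made 3 of 8 genes higher without overlap against 21% of all genes. The fold change of Scd1 was 0.61 with an SE of 0.71 and that of Fads1 was 0.12 with an SE of 0.20, so that neither exceeded its error. Elovl5 had 171 and 238 FPKM in f/f CD and 200.1 and 196.6 in LKO CD, a log2 fold change of −0.02 (SE 0.21, 95% interval −0.52 to 0.48). The summed FPKM of macrophage markers was 78.8 and 103.5 in f/f CD and 80.2 and 76.9 in LKO CD. Of the 7, 6 had lower means in LKO CD, where 5842 of all 11634 genes did. Without overlap on the normalized scale, 1 of the 7 was lower and 0 were higher, where 21% of all genes were higher. The share of all genes that were lower was not counted. Of the 6 hepatocyte markers (Alb, with its values of 0, included), 4 were lower and 2 higher in LKO CD. Tat was called lower by the procedure (log2 fold change −0.74, SE 0.18, limma adjusted p = 0.22). Ttr, not called, had 4025 and 3994 FPKM in f/f CD and 4541 and 4322 in LKO CD. The adipocyte marker Adrb3 was called higher (0.66, SE 0.15, limma adjusted p = 0.21). That call was lost without f/f CD 2 (0.52) or LKO CD 2 (0.53). The part of these markers in the result was not tested.

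**Figure D2:**
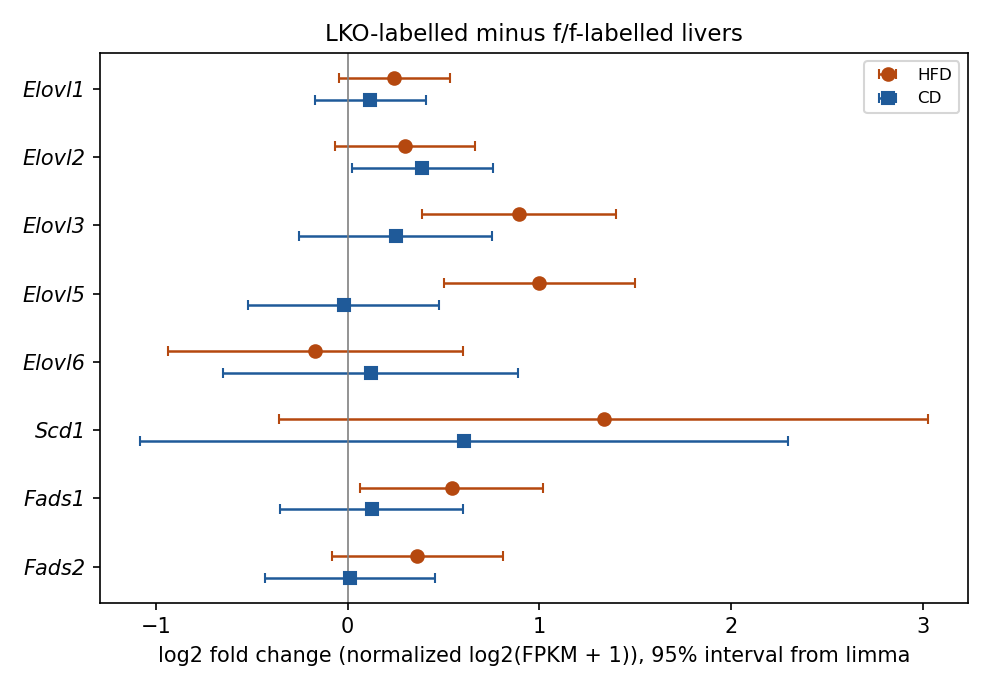
Log2 fold change of LKO-labelled over f/f-labelled livers (horizontal axis, normalized log2(FPKM + 1)) for the 8 genes tested (vertical axis), on HFD (circles) and on CD (squares), with 95% intervals from limma, n = 2 libraries a group. Elovl5 lies at 1.00 on HFD and at −0.02 on CD, and the intervals of Scd1 cover 0 on both diets.

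Whether the genotype difference itself changed with the diet was tested as an interaction. No gene of the 8 had an adjusted p under 0.05 in limma, where 0.0344% of all genes did. Elovl5 was the only gene with an unadjusted p under 0.05 in the higher direction, against 4.35% of all genes, and its difference was larger on HFD by 1.02 on the log2 scale (SE 0.30, 95% interval 0.32 to 1.72, limma adjusted p = 0.56). For Elovl3 the corresponding value was 0.64 (SE 0.30, 95% interval −0.07 to 1.35, limma adjusted p = 0.63) and for Scd1 it was 0.73 (SE 1.01, limma adjusted p = 0.85). Averaged over the diets, no gene passed with adjustment, where 0.103% of all genes did. Elovl2 (0.34), Elovl3 (0.57) and Elovl5 (0.49) had an unadjusted p under 0.05 in the higher direction for this average, 3 of 8 genes against 7.18% of all genes.

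The second question was how the genes differed between HFD and CD. Averaged over both genotype labels, Elovl6 and Elovl1 fell on HFD with adjusted p values under 0.05 in limma, 2 of the 8 genes against 4.86% of all genes. Elovl6, the elongase that directly follows palmitate synthesis, had 10.9 and 20.1 FPKM in f/f CD and 13.9 and 18.5 in LKO CD. On HFD it had 3.82 and 4.73 FPKM in f/f-labelled and 4.82 and 2.71 in LKO-labelled livers, so that all 4 HFD libraries lay below all 4 CD libraries. It fell by 1.71 on the log2 scale (SE 0.23, 95% interval −2.25 to −1.16, limma adjusted p = 0.0095). Elovl1, which acts on saturated chains of great length, had 30.3 and 27.0 FPKM in f/f CD and 31.6 and 29.7 in LKO CD. On HFD it had 18.1 and 16.7 FPKM in f/f-labelled and 23.2 and 18.4 in LKO-labelled livers, again with all 4 below all 4. It fell by 0.59 on the log2 scale (SE 0.09, 95% interval −0.79 to −0.38, limma adjusted p = 0.012). Of the 6 hepatocyte markers (Alb, with its values of 0, included), 4 were lower and 2 higher on HFD by this average. Tat fell by 1.14 (SE 0.12, limma adjusted p = 0.0061). Ttr rose by 0.39 (limma adjusted p = 0.026), a call lost without quantile normalization. The part of these markers in the results was not tested.

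Within the f/f-labelled livers all 8 genes had lower means on HFD, none with an adjusted p under 0.05 in limma, where 1.33% of all genes passed. An unadjusted p under 0.05 in the lower direction was reached by 6 genes, against 9.22% of all genes, and 7 genes were lower without overlap, against 24.1%. The exceptions were Scd1, whose libraries overlapped, and Elovl2, which was separated but had an unadjusted limma p of 0.095. The largest log2 fold change was that of Elovl6, −1.56 (SE 0.32, limma adjusted p = 0.074), followed by Scd1 at −1.09 (SE 0.71). Elovl5 was at −0.83 (SE 0.21) and Elovl3 at −0.73 (SE 0.21), from 37.7 and 57.2 FPKM on CD to 30.3 and 24.3 on HFD. Elovl1 was at −0.65 (SE 0.12, limma adjusted p = 0.062), Fads2 at −0.61 (SE 0.19) and Fads1 at −0.54 (SE 0.20). Fads2 had 228 and 260 FPKM and Fads1 124 and 131 FPKM in f/f CD.

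Within the LKO-labelled livers Elovl6 fell by 1.85 on the log2 scale (SE 0.32, limma adjusted p = 0.038), 1 of the 8 genes, where 1.44% of all genes were called lower. This call was lost when any of the 4 libraries was left out, with adjusted p between 0.09 and 0.18 and log2 fold changes from −2.19 to −1.51. Elovl1 (−0.52, SE 0.12) and Elovl2 (−0.39, SE 0.15) joined it with an unadjusted limma p under 0.05, which made 3 of 8 genes against 9.69% of all genes. The same 3 genes were lower without overlap, against 25% of all genes. The other 5 overlapped between the diets. Elovl3 was at −0.08 (SE 0.21), from 51.3 and 59.7 FPKM on CD to 54.7 and 45.9 on HFD, and Elovl5 was at 0.19 (SE 0.21). Fads1 had 136 and 143.8 FPKM on CD in these livers, Fads2 had 210.3 and 292 FPKM, and their log2 fold changes on HFD were −0.13 (SE 0.20) and −0.26 (SE 0.19). None of these 5 exceeded 1.5 times its error, and for 4 of them (Elovl3, Elovl5, Fads1 and Scd1) the value moved by over 1.5 times with another processing of the same libraries. The genotype comparison on HFD and the diet comparisons use the same HFD libraries and are not independent of each other. All 7 macrophage markers had lower means on HFD in f/f-labelled livers (median log2 fold change −0.30), where 5509 of 11634 genes were lower. In LKO-labelled livers all 7 had higher means (median 0.25), where 5945 of 11634 genes were higher. Without overlap on the normalized scale, 3 were lower in f/f-labelled livers, against 24.1% of all genes. In LKO-labelled livers 1 was higher and 0 were lower, where 25% of all genes were lower. The share of all genes that were higher was not counted. None had an adjusted p under 0.05 in limma, and the part of these markers in the results was not tested.

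**Figure D3:**
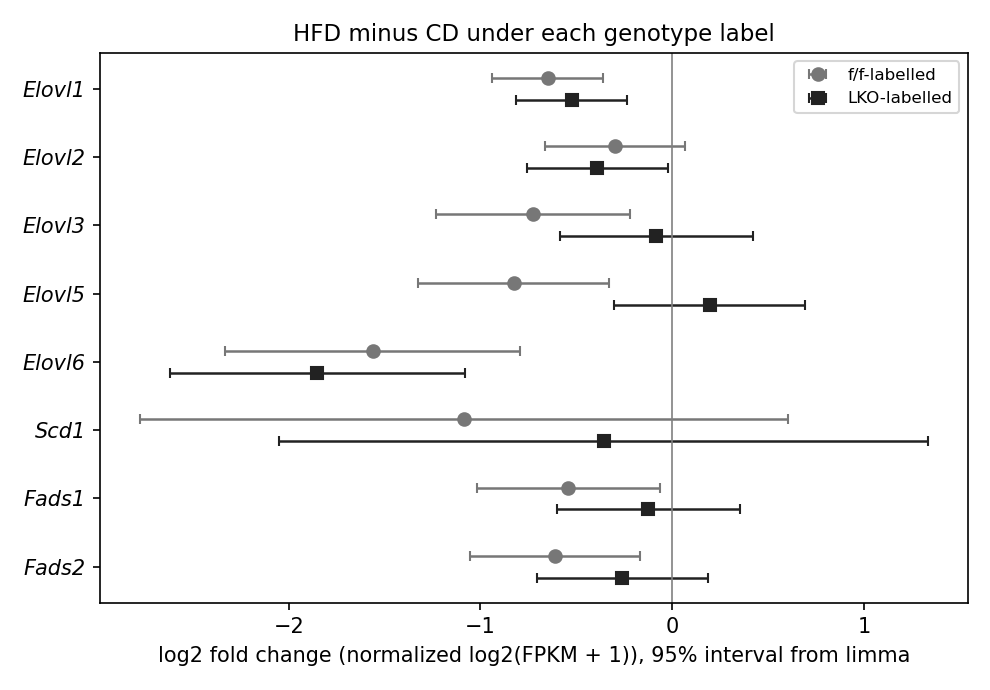
Log2 fold change between HFD and CD (horizontal axis, normalized log2(FPKM + 1)) for the 8 genes tested (vertical axis), in f/f-labelled livers (circles) and in LKO-labelled livers (squares), with 95% intervals from limma, n = 2 libraries a group. Elovl6 lies at −1.56 and −1.85, and Elovl5 lies at −0.83 in f/f-labelled and at 0.19 in LKO-labelled livers.

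The balance between the genes differed with them. The ratio of Elovl6 to Elovl5 FPKM was 0.0638 to 0.0940 in the 4 CD libraries, 0.0392 in both f/f HFD libraries and 0.0201 and 0.0146 in the LKO HFD libraries. The ratio of Fads1 to Fads2 stayed between 0.493 and 0.666 and showed no separation of diets or genotypes. Over the 8 libraries on the normalized log2 scale, and by Pearson's r, Scd1 was most closely followed by Fads1 (Pearson's r 0.918, Spearman's rho 0.905), Elovl3 by Elovl5 (0.895 and 0.79) and Elovl6 by Elovl1 among the elongases (0.85 and 0.69). By Spearman's rho Elovl3 was closer to Fads1 and Fads2 (0.905 each) than to Elovl5. After the group means were removed, r was 0.872 for Scd1 and Fads1, 0.627 for Elovl3 and Elovl5 and 0.077 for Elovl6 and Elovl1. By this measure Scd1 was closer to Elovl5 (0.918) and Elovl3 to Elovl6 (0.774). The 2 libraries of a group then deviate equally in opposite directions, so that each such r rests on only 4 independent values. These points share libraries and their normalization, and the correlations are given as a description. Among 6732 other genes with a mean FPKM of at least 5, the gene most like Elovl3 was Hsd17b12 (Pearson's r 0.974, Spearman's rho 0.976), the ketoreductase of the elongation round. The gene most like Elovl6 was Idh3a (0.99 and 0.976), a subunit of isocitrate dehydrogenase, that most like Elovl1 was Klhdc10 (0.986 and 0.976), and that most like Elovl5 was Mapk1ip1l (0.971 and 0.97). For Scd1 it was Ugt1a5 (0.961 and 0.857), and for Fads1 it was A1cf (0.954 and 0.922).

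The genes around these enzymes gave a background for each step. Of the other 6 elongase and desaturase genes listed, Elovl4, Elovl7, Scd3 and Scd4 stayed at or below 0.107 FPKM in every library, and only Fads3 and Fads6 were tested. Fads6 had 30.6 and 31.5 FPKM in f/f CD, 32.9 and 33.2 in LKO CD, 29.5 and 26.8 in f/f HFD and 26.0 and 25.9 in LKO HFD. It fell on HFD by 0.20 on the log2 scale averaged over the genotypes (SE 0.05, limma adjusted p = 0.048), a call that was lost when any library was left out. Of the 7 partners that complete the elongation round, 5 were tested and none was called in any comparison by either test. Among them Hsd17b12 had 70.3 and 66.3 FPKM in f/f HFD and 88.6 and 85.7 in LKO HFD (log2 fold change 0.37, SE 0.08, limma adjusted p = 0.23). Tecr, the reductase of the last step of the round, had an average difference of −0.28 between HFD and CD (SE 0.07, limma adjusted p = 0.058). Of the 4 genes that supply the desaturases with electrons, the one called in a comparison was Cyb5a (cytochrome b5), with 1068 and 1020 FPKM in f/f CD, 1002 and 917 in LKO CD, 1151 and 1041 in f/f HFD and 1025 and 1219 in LKO HFD. The f/f-labelled libraries overlapped between the diets in FPKM. The difference between HFD and CD was 0.36 on the normalized log2 scale (SE 0.07, limma adjusted p = 0.023) but 0.15 without quantile normalization (limma adjusted p = 0.27). The hepatocyte marker Ttr, also among the most abundant transcripts, moved in the same way, from 0.39 (limma adjusted p = 0.026) to −0.011 without quantile normalization.

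Palmitate synthesis, which feeds Elovl6 and Scd1, was lower on HFD as a group. Averaged over the genotypes, 6 of its 7 genes fell with a limma adjusted p under 0.05, where 4.86% of all genes did. Fasn, the fatty acid synthase, fell by 1.35 on the log2 scale (SE 0.15, limma adjusted p = 0.0063), from 45.2 to 67.7 FPKM in the 4 CD libraries to 14.1 to 24.5 in the 4 HFD libraries. Acly (ATP citrate lyase) fell by 1.25, Acacb and Acaca (acetyl-CoA carboxylases) fell by 1.24 and 0.89, Acss2 (acetyl-CoA synthetase) fell by 0.78 and Slc25a1 (the citrate carrier) fell by 0.40. Fasn, Acly and Acss2 kept the call in all 8 fits that left out a library, and Acacb, Acaca and Slc25a1 each kept it in 5 of 8. All 7 genes were lower on HFD without overlap, against 24.1% of all genes in f/f-labelled and 25% in LKO-labelled livers. With adjustment, limma called 4 of them lower in LKO-labelled livers, against 1.44% of all genes, and 1 (Acly) in f/f-labelled livers, against 0.705%. None of these calls within a genotype label was kept in all 4 fits that left out a library of the comparison. Between the genotypes the procedure called 1 of the 7 on each diet, Me1 (malic enzyme, a source of NADPH), which was higher in the LKO-labelled libraries on HFD (log2 fold change 0.83, SE 0.22, limma adjusted p = 0.32) and on CD (0.81, SE 0.22, limma adjusted p = 0.26). The call of Me1 on HFD was lost without f/f HFD 1 (0.90) or f/f HFD 2 (0.76). Fasn was at −0.29 (SE 0.21) between the genotypes on HFD and Acly at −0.26 (SE 0.12), neither of them called. Acaa1b, a thiolase of peroxisomal chain shortening, was called higher by the procedure in LKO-labelled livers on HFD (0.68, SE 0.21, limma adjusted p = 0.37). That call was lost without LKO HFD 2 (0.65), and Acaa1b was not called on CD. Hsd17b4, another enzyme of peroxisomal chain shortening, rose on HFD by 0.23 averaged over the genotypes (SE 0.06, limma adjusted p = 0.049), a call lost without quantile normalization (0.18) and when any library was left out.

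**Figure D4:**
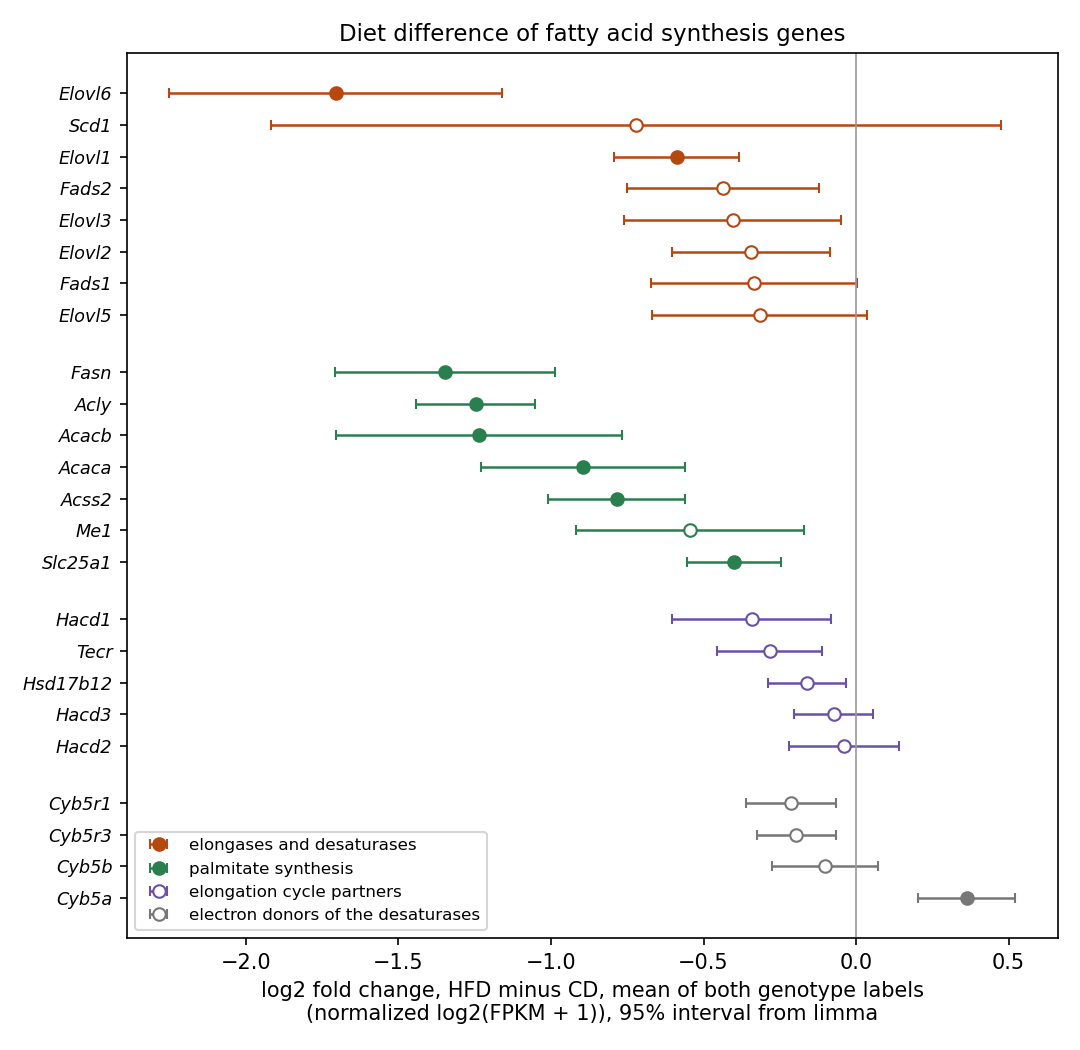
Log2 fold change between HFD and CD averaged over both genotype labels (horizontal axis, normalized log2(FPKM + 1)) for the tested genes of 4 lists (vertical axis, colours), with 95% intervals from limma over 8 libraries. Filled points have a limma adjusted p under 0.05, which were 2 of 8 elongases and desaturases, 6 of 7 genes of palmitate synthesis, none of 5 elongation partners and 1 of 4 electron donors.

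Among 14 regulators of lipid synthesis, Insig2, which holds SREBP precursors in the endoplasmic reticulum, was higher in LKO-labelled livers. It had 82.4 and 81.0 FPKM in f/f HFD and 156.6 and 155.6 in LKO HFD (log2 fold change 0.94, SE 0.08, limma adjusted p = 0.029). The procedure called it as well and kept the call with any of the 4 libraries left out, where limma lost it. The CD libraries had 66.5 and 67.9 FPKM in f/f-labelled and 112.9 and 100 in LKO-labelled livers, a difference called by the procedure (0.65, SE 0.08, limma adjusted p = 0.089). Averaged over the diets, the difference of Insig2 was 0.79 (limma adjusted p = 0.0074), 1 of the 14 regulators against 0.103% of all genes. This call was kept in all 8 alternatives and with any library left out. The procedure also called Srebf1 (0.68, SE 0.13) and Scap (0.50, SE 0.13), the escort of SREBP, higher and the coactivator Ppargc1a (−0.55, SE 0.11) lower in LKO-labelled livers on CD. With a library left out, the call of Scap was kept only without LKO CD 1 (0.69). That of Ppargc1a was lost without f/f CD 2 (−0.42) or LKO CD 1 (−0.50). Srebf1 had 39.3 and 31.9 FPKM in f/f CD, 59.6 and 54.7 in LKO CD, 40.4 and 49.0 in f/f HFD and 34.3 and 30.9 in LKO HFD. In the LKO-labelled livers it fell on HFD by 0.74 on the log2 scale (SE 0.13, limma adjusted p = 0.04), a call lost when any of the 4 libraries was left out. In the f/f-labelled livers both HFD libraries lay above both CD libraries, at 0.35 (SE 0.13, limma adjusted p = 0.22), where Elovl6 was at −1.56 and Fasn at −0.997 (SE 0.21, limma adjusted p = 0.078). Pparg lay between 3.83 and 6.38 FPKM in the 8 libraries, with a log2 fold change of 0.42 between the genotypes on HFD (SE 0.08, limma adjusted p = 0.23), and Ppara was at 0.17 (SE 0.13). Averaged over the genotypes, Insig2 (0.50), Rxra (0.27) and Pparg (0.25) rose on HFD and Insig1 fell by 0.56, all with a limma adjusted p under 0.05 (5.04% of all genes rose and 4.86% fell with such a p), although the call of Pparg was lost without quantile normalization and when any library was left out. The call of Rxra was kept in 5 of the 8 fits that left out a library. The other 7 regulators were not called in any comparison by either test.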

How the data were processed

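Poly(A) RNA of mouse liver was sequenced in 8 libraries. Per the submitters' processing notes and the methods, the authors trimmed reads with cutadapt 1.0, aligned them to GRCm38 with TopHat2 2.0.7 and deposited FPKM (not on a log scale) from Cufflinks, with no read counts used here. Symbols and coordinates came from GENCODE on GRCm38, by Ensembl identifier. The 11634 genes whose FPKM exceeded 1 in any library were kept, 1 was added, and the log2 values were quantile normalized. The study's permutation procedure was rebuilt from its description with 100 of 210 distinct regroupings (seed 11), fewer than the study drew, and its calls can differ from the study's. limma 3.58.1 (R 4.3.3) fitted the 4 groups together with a mean-variance trend, 4 residual degrees of freedom and 2.8 added by moderation, and its p values were adjusted by Benjamini-Hochberg within each comparison. Both were tested on simulated data. The genes named are the 9 chosen ones, genes of the lists called in any comparison, and Rora, Srebf1, Ppara, Pparg and Fasn. Some other genes are named from the same lists after their values were seen (Fads3, Tecr, Hsd17b12, Serpina1a, Mlxipl, Vsig4). The genes and lists were chosen with earlier results of these data known. Promoters came from RefSeq (GRCm38.p6) and primers from the supplementary tables. Alternatives were other normalizations, a pseudocount of 0.1, other filters, another seed, the replicate block, limma without the trend or on 4 libraries, and each library left out. Some genes of the lists are not reported here. The quantitative PCR and ChIP of the study were not analysed here. Figures were drawn with matplotlib 3.10.9.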

Additional observations from a re-analysis of the deposited data

Results flagged for a closer look

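For 4 of the 70 tested genes of the lists, against 6.71% of all genes, all LKO-labelled libraries lay on opposite sides of the f/f-labelled ones in FPKM on the 2 diets. Srebf1 was higher in both LKO-labelled libraries on CD and lower in both on HFD, and the genotype difference on HFD minus that on CD was −1.09 on the log2 scale (SE 0.19, limma adjusted p = 0.36). Fads6 did the same with a difference of −0.19 (SE 0.10, limma adjusted p = 0.66). Mlxipl (ChREBP), a regulator of lipogenesis, did so too (−0.40, SE 0.13, limma adjusted p = 0.56). The macrophage marker Vsig4 crossed the other way, lower in LKO-labelled libraries on CD and higher on HFD, with a difference of 0.61 (SE 0.25, limma adjusted p = 0.59). None of the 4 passed after adjustment. None of the 9 elongases and desaturases showed such a crossing. Groups of 2 libraries were too small for a search for single libraries that stand apart.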

How the results depend on the processing

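Counts here are of the 8 genes called. For the genotype on HFD the procedure called 4, 3 with a pseudocount of 0.1 or median centring (without Fads1) and 2 to 5 with a library left out. On CD it called 0, 1 (Scd1) without quantile normalization, with median centring or with every gene above 0 FPKM in any library, and 0 to 2 with a library left out (Elovl3 and Scd1 without f/f CD 2, Elovl2 without LKO CD 1). For diet in f/f-labelled livers limma called 0, but 2 (Elovl1 and Elovl6) with FPKM above 1 in all 8 libraries or, an alternative added after the values were seen, without genes listed at 0. In LKO-labelled livers it called 1, 2 with FPKM above 1 in all 8 libraries, 0 with FPKM above 0, without the trend or in a fit of 4 libraries, and 0 to 0 with a library left out. Averaged over the genotypes it called 2 in every alternative and 2 to 3 with a library left out (Fads1 joined without LKO HFD 1). The other limma counts were 0 throughout. The labels do not say whether same-numbered libraries belong together. Such libraries deviated from their group means with a Pearson's r of −0.00371 to 0.149, which cannot settle it. With the replicate block, 0 genes were called in f/f-labelled livers, 1 (Elovl1 in place of Elovl6, adjusted p = 0.059) in LKO-labelled livers and 2 on average.

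Over all genes, the procedure called 529 on HFD and 622 on CD (336 to 806 and 401 to 948 over alternatives). In limma the counts were 5 on HFD (4 to 24), 2 on CD (0 to 10), 4 for the interaction (0 to 19), 155 for diet in f/f-labelled livers (5 to 323), 351 in LKO-labelled livers (0 to 570), 12 for the average genotype (7 to 50) and 1151 for the average diet (704 to 1331). With a library left out the same limma counts ranged over 12 to 21, 11 to 19, 10 to 21, 22 to 32, 21 to 83, 13 to 30 and 374 to 816.

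Among the 8 tested elongases and desaturases, signs turned only for uncalled differences and only with a library left out, and the cause was not tested. Between the genotypes on CD the log2 range was −0.048 to 0.55 for Elovl3, −0.29 to 0.25 for Elovl5, −0.30 to 0.54 for Elovl6 and −0.19 to 0.22 for Fads2. For Elovl6 it was −0.51 to 0.17 on HFD and −0.23 to 0.19 on average. For the interaction it was −0.043 to 0.29 for Elovl1, −0.30 to 0.12 for Elovl2, −0.71 to 0.13 for Elovl6 and −0.12 to 1.59 for Scd1. For diet in LKO-labelled livers it was −0.23 to 0.065 for Elovl3, −0.018 to 0.41 for Elovl5, −0.46 to 0.20 for Fads1 and −1.22 to 0.50 for Scd1. For these genes, other processing of all 8 libraries turned no sign but moved 7 uncalled values by over 1.5 times. In LKO-labelled livers the diet differences ranged over −0.14 to −0.082 for Elovl3, 0.093 to 0.20 for Elovl5, −0.22 to −0.12 for Fads1 and −0.77 to −0.36 for Scd1. The other 3 were the genotype differences of Fads2 on CD (0.0069 to 0.033) and of Elovl6 on average (−0.042 to −0.023) and the interaction of Scd1 (0.47 to 0.73). With 2 libraries a group, a lone library left in a group is assumed to vary like the others.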
